A study of Homo sapiens with 29 samples.

Results

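DRB/TTchem-seq tables of HEK293 cells, an established human embryonic kidney line, were examined for the genes of DNA replication, DNA repair and sister chromatid cohesion. A gene was included when its current symbol fitted a fixed set of name patterns (RAD, FANC, XRCC, ERCC, MSH, ORC, MCM, RFC, SMC, PDS5, PARP, TOP, the repair polymerases and single names such as ATM, BRCA1, NIPBL and RRM2). The patterns took 58 of the 4592 listed genes. They use names and no measured value, but were set with earlier results of these data known. Both series of libraries were made 4 days after lentiviral delivery of a hairpin, a control hairpin (shCtrl) or one against THOC5 (shTHOC5), THOC5 being a subunit of the THO complex that couples transcription to mRNA export. All cells then received 100 µM DRB, a reversible inhibitor of the elongation kinase CDK9, for 3.5 h, and labelling with 1 mM 4-thiouridine was kept at 10 min. Samples were taken 10, 20, 30 and 40 min after DRB washout, with 1 library per hairpin and release time and 8 libraries in all, so no value below has a replicate error and no test was run. The tables hold no row for THOC5, so its depletion could not be checked in them.

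RNA polymerase II that has been held at promoters by DRB enters genes together after the washout, and the front of newly labelled RNA, called the wave, travels downstream. Genes of replication and repair are known for their expression in cycling cells, where many of them are targets of E2F transcription factors. Cohesin holds sister chromatids together, the origin recognition complex loads the replicative helicase, and the repair pathways deal with mismatches, bulky lesions, crosslinks and breaks. Several of these genes are long, which makes their full transcription slow.

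The wave peak, the called position of the wave, is given in kb from the listed gene start (TSS). Coverage is the summed signal of the window from 2 kb before to 120 kb after that start, in normalized reads (rpm). Between the series, the wave peak at the lower position is called nearer the TSS, also where it lies before the TSS. Of the 58 genes, 37 were shorter than 120 kb, so their windows also took in what lies beyond the gene end. Each series has 1 coverage value per gene. The coverage was stated as normalized to sequencing depth, and the depth of the libraries is unknown. In each series the values sum to 1000000 over the listed genes, so a coverage ratio compares shares of the signal of the listed genes. The 58 genes spanned 61.4 to 276 kb with a median of 95.8 kb.

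The promoters of a few of the genes are printed first, because the position of the promoter decides how a wave peak is read. Each is 250 bases before to 50 bases after a RefSeq start on GRCh38, 5′ to 3′ on the gene's own strand, and capitals mark the 50 transcribed bases. PDS5A (chr4:39977862-39978161, minus strand) is shown as a gene whose start lies 0.045 kb from the listed start. RRM2 (chr2:10122489-10122788, plus strand) starts 2.04 kb inside its listed gene. MSH6 (chr2:47782895-47783194, plus strand) starts 87.6 kb inside, and SMC6 (chr2:17753761-17754060, minus strand) 46.4 kb inside. RAD52 has one start 0.012 kb (chr12:989992-990291) and another 40.4 kb (chr12:949645-949944) from the listed start, both on the minus strand.
PDS5A: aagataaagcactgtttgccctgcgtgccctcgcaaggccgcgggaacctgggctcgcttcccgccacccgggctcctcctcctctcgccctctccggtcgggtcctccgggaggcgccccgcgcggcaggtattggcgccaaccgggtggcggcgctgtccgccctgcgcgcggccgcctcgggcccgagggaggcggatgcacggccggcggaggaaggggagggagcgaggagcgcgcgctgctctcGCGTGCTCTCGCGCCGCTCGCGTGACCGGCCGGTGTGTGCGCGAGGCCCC
RRM2: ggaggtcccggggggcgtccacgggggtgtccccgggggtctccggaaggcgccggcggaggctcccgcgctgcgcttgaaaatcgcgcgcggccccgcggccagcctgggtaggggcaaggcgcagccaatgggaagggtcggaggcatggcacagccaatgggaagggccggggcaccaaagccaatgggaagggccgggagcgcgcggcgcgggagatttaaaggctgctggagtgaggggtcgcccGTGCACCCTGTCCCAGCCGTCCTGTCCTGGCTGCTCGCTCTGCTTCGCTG
MSH6: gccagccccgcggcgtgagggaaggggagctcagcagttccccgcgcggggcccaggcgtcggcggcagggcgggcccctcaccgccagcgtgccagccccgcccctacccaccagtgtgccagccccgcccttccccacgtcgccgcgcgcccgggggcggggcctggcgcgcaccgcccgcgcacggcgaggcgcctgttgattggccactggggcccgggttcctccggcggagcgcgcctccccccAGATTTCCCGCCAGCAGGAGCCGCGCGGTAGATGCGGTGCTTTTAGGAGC
SMC6: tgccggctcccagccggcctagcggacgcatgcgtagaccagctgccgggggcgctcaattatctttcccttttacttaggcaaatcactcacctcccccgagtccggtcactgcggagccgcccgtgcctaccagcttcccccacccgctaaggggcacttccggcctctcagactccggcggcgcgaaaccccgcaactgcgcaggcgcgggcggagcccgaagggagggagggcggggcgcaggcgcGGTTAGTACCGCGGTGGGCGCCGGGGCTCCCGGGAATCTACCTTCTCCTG
RAD52, inner start: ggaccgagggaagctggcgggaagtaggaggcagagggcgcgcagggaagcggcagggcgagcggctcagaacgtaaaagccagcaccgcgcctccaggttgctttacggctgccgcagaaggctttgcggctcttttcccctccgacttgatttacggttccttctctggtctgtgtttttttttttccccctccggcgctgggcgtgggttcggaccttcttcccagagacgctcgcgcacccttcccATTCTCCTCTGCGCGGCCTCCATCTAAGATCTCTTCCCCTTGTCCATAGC
RAD52, outer start: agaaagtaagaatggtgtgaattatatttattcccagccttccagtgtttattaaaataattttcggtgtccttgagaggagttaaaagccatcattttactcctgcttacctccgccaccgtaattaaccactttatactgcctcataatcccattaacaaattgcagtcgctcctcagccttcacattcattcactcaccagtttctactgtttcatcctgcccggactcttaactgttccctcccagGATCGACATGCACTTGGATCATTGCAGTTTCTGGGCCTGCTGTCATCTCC
The inner RAD52 promoter holds 24 CG pairs and the outer one 6, against 45 in PDS5A, 31 in RRM2, 39 in MSH6 and 33 in SMC6. In all, 66 promoters of 50 of the genes were found in the RefSeq table, with a median of 27 CG pairs, beside 23 over the promoters of all listed genes and 14 over all 35116 promoters of the table. The letters TTTCCCGC, TTTCGCGC, TTTGCCGC or TTTGGCGC, forms of the E2F site, occurred on either strand in 10 of the 66 (15.2%), in 3.31% of all promoters and in 3.65% of those of all listed genes. In MSH6 they begin 3 bases after the start base (tttcccgc), and in SMC6 67 bases before it as gcgcgaaa. The other 8 were in FANCA, FANCD2, MSH3, NIPBL, ORC3, POLE, REV3L and RFC3. These are matches of letters only, and no binding was measured.

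Coverage of the group was higher in shTHOC5 than in shCtrl for most genes. The median was 186 rpm in shCtrl and 246 rpm in shTHOC5, and 42 of the 58 genes were higher in shTHOC5 (72.4%), beside 56.7% of all genes with a ratio, and 16 lower (27.6%), beside 43.3%. The median ratio of shTHOC5 to shCtrl was 1.23 over the group, beside 1.09 over all listed genes. At least 1.5 times higher coverage in shTHOC5 was seen in 21 of the 58 genes (36.2%), beside 27.6% of all genes with a ratio, and at least 1.5 times lower coverage in 3 genes (5.17%), beside 15.8%. In both series 50 of the 58 genes (86.2%) reached 100 rpm, beside 50% of all listed genes, and the median ratio of those 50 was 1.22. The median ratio of the 2298 listed genes of that coverage was not computed, so the comparisons above are not at like coverage.

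**Figure D1:**
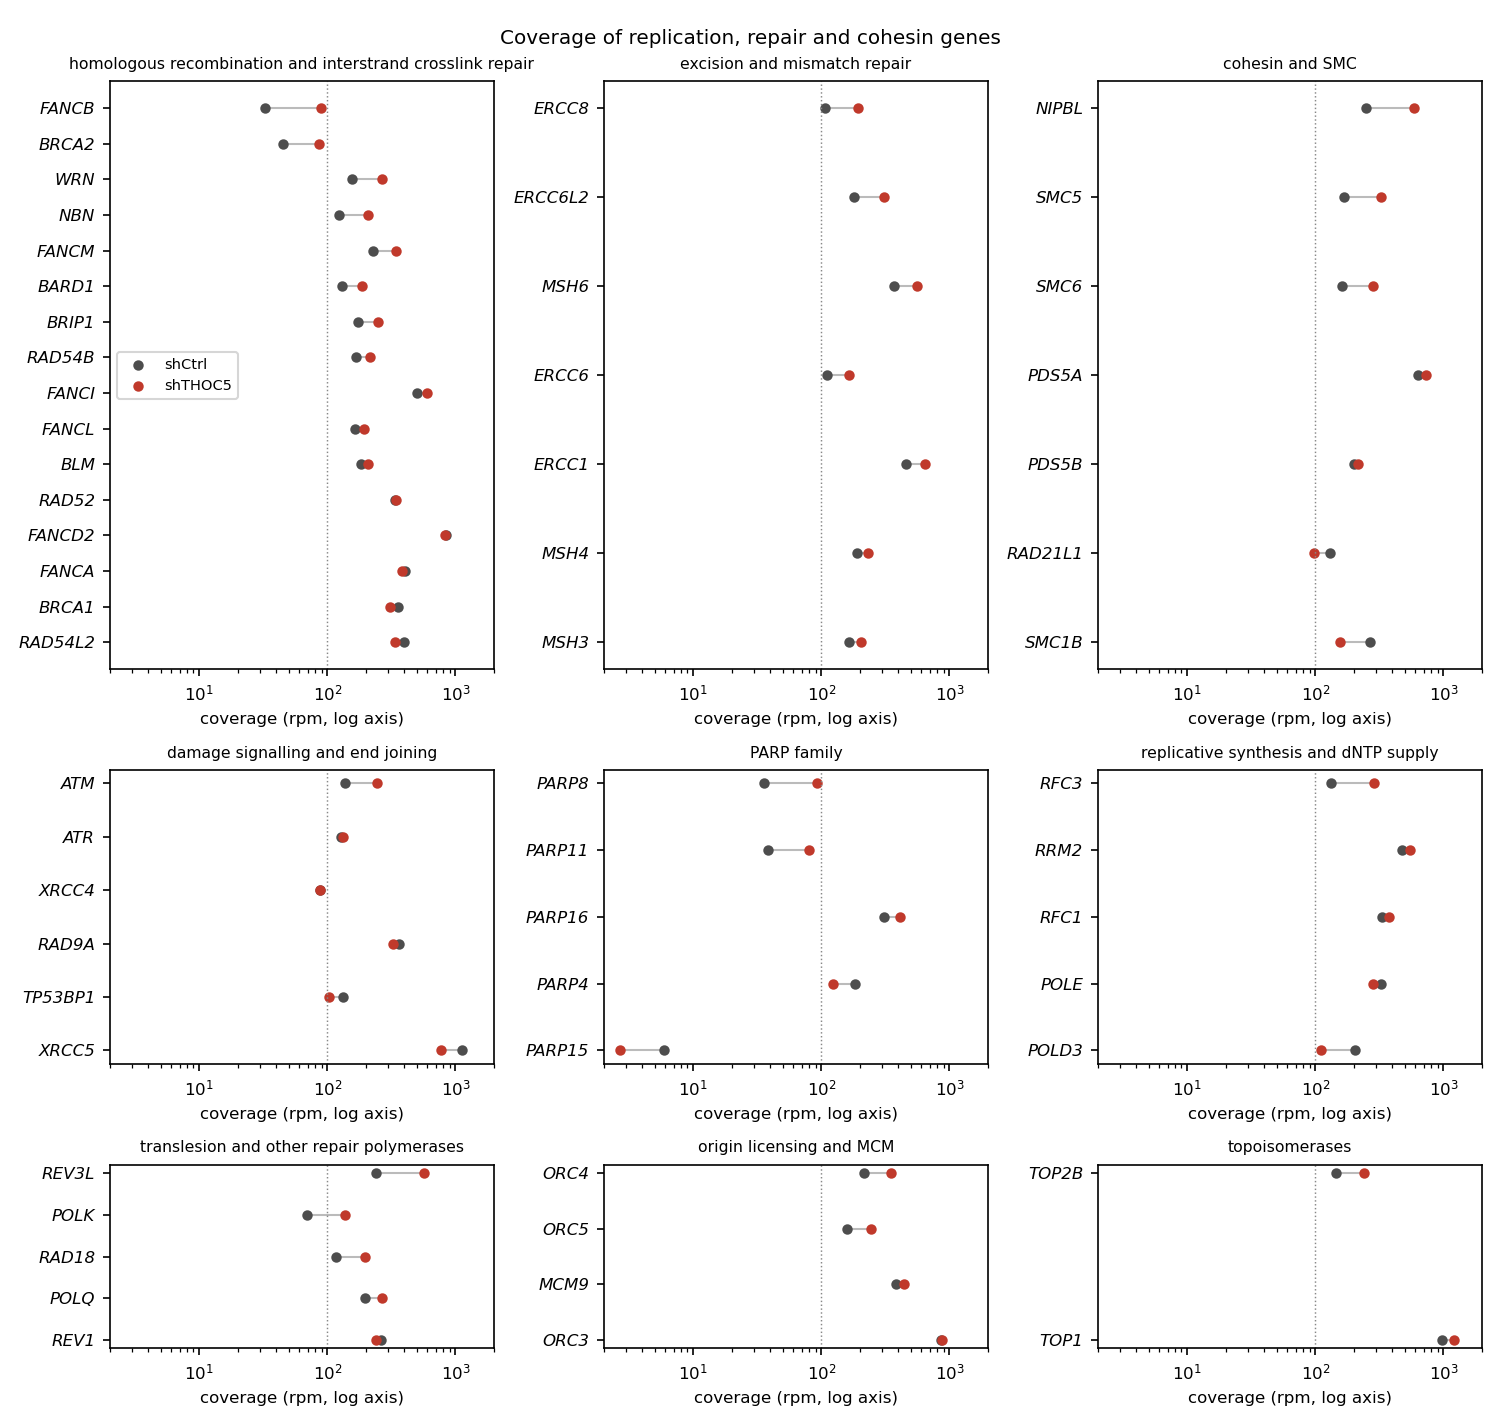
Coverage of 57 of the 58 genes in shCtrl (grey) and shTHOC5 (red), in rpm on a log axis, with 1 panel per role and genes ordered by their ratio; the dotted line marks 100 rpm. In the excision and mismatch repair panel the 7 genes drawn lie higher in shTHOC5, and in the damage signalling and end joining panel 2 of 6.

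The 5 genes of translesion synthesis and other repair polymerases, which copy damaged templates or joined ends, had the highest median coverage ratio of the roles, 1.69. REV3L, the catalytic subunit of polymerase zeta, had 239.6 rpm in shCtrl and 573 rpm in shTHOC5, a ratio of 2.39 and the largest of the 50 genes that reached 100 rpm in each series. Of the others POLK, a Y-family polymerase, had 1.97, RAD18, the ubiquitin ligase that acts on PCNA, with 1.69 and POLQ, the polymerase of theta-mediated end joining, with 1.37. REV1 was the one of the 5 below 1, at 0.920.

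In excision and mismatch repair the median ratio was 1.44 and 7 of 8 genes were higher in shTHOC5. ERCC8, which acts in transcription-coupled repair, had a ratio of 1.82, and MSH6, a mismatch recognition protein, had 1.52.

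The ratios of the cohesin and SMC genes ran from 0.590 to 2.34. NIPBL, the cohesin loader, had 249.7 rpm in shCtrl and 585 rpm in shTHOC5. SMC5 and SMC6, which form the SMC5/6 complex with each other, had ratios of 1.95 and 1.75. The SMC6 window also takes in GEN1 on the opposite strand, where most of its wave peaks lay. PDS5A and PDS5B, the paralogous cohesin regulators, were nearer to 1, at 1.15 and 1.08. SMC1B, the meiotic cohesin subunit, had 265 rpm in shCtrl and 156 rpm in shTHOC5, in a window that also takes in FAM118A, where its wave peaks lay.

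Among genes of homologous recombination and crosslink repair the median ratio was 1.24, with 12 of 16 genes higher. FANCB, a member of the Fanconi core complex, had the highest ratio of the whole group, 2.70, from only 32.7 rpm in shCtrl. BRCA2, a central factor of recombination repair, had 45.3 rpm in shCtrl and 86.7 rpm in shTHOC5. RAD52, a single-strand annealing protein, was nearly level with 338 and 346 rpm, and BRCA1 had 355 and 309 rpm.

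Replicative genes were mixed. RFC3, a subunit of the clamp loader, had 133 rpm in shCtrl and 285 rpm in shTHOC5 (2.14). POLD3, a subunit of polymerase delta, had 205 and 111 rpm (0.543), the smallest ratio of those 50 genes. The transcript that GENCODE marks as representative ends 19.4 kb from the listed start in RFC3 and begins 98.7 kb from it in POLD3. Most of either coverage window thus lies outside that transcript. RRM2, the small subunit of ribonucleotide reductase, which supplies deoxynucleotides, had 472 and 547 rpm. All 4 genes of the origin and MCM role, MCM9, ORC3, ORC4 and ORC5, were higher in shTHOC5, beside 56.7% of all genes with a ratio. ORC4 led at 1.64, and ORC3 had 1.03. The windows of ORC3 and MCM9 also take in AKIRIN2 and ASF1A, in which wave peaks of these genes lay. The topoisomerases TOP2B and TOP1, which relieve torsion in DNA, had ratios of 1.66 and 1.24.

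Damage signalling and end joining was the role with a median below 1, 0.941 over 6 genes. XRCC5, the Ku80 subunit that binds broken ends, had 1123 rpm in shCtrl, the highest value of that series among the 58 genes, and 775 rpm in shTHOC5. TOP1 with 969 rpm and ORC3 with 854 rpm followed it in shCtrl. The kinases differed: ATM had a ratio of 1.76 and ATR of 1.04. In the PARP family PARP8 (2.60) and PARP11 (2.07) were higher from under 40 rpm in shCtrl, PARP4 was lower (0.670), and PARP15 was at 5.87 rpm in shCtrl and 2.66 rpm in shTHOC5.

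Of 119 further genes of the same pathways that the name patterns do not take, 25 were listed. Their median coverage ratio was 0.931, with 9 genes higher (36%) and 16 lower (64%) in shTHOC5, beside 56.7% and 43.3% of all genes with a ratio. Only PARG, which removes poly(ADP-ribose), reached 1.5 times higher (4%), beside 27.6%. At least 1.5 times lower were 4 genes (16%), near the 15.8% of all genes with a ratio. RPA1, the large subunit of the single-strand binding protein, had the lowest ratio of them, 0.396. The median above 1 of the 58 genes was not seen in this list, which was drawn up with earlier results of these data known.

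A wave peak that lay farther downstream at each later release time was called in order. This held for 14 of the 58 genes (24.1%) in shCtrl, beside 13.2% of all listed genes, for 19 (32.8%) in shTHOC5, beside 31.3%, and for 12 (20.7%) in both, beside 9.23%. Among the 50 better covered genes (100 rpm or more in each series) 26% were in order in shCtrl and 36% in shTHOC5, beside 20.4% and 43.7% of the 2298 listed genes of that coverage. BARD1, ERCC6L2, POLD3, POLE, TOP2B and XRCC5 were among the genes in order in shTHOC5 only, and PARP4 and POLQ in shCtrl only.

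**Figure D2:**
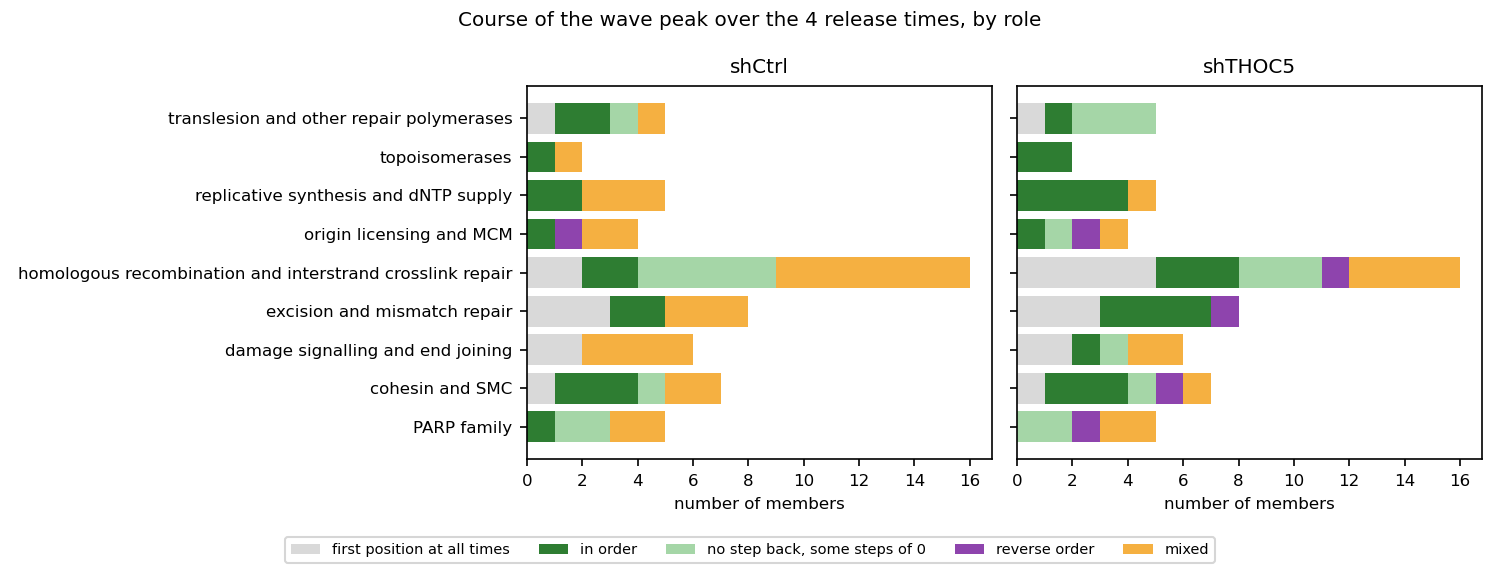
Number of genes by the course of the wave peak over the 4 release times in each role, in shCtrl (left) and shTHOC5 (right). The 14 genes in order in shCtrl and the 19 in shTHOC5 are dark green, and the 9 and 12 genes without any departure from the first position of the window are light grey.

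Over all 58 genes, in order or not, the shTHOC5 peak was nearer the TSS at 10 min in 24, beside 45.9% of all listed genes, and farther in 7, beside 20.8%. At 20 min it was nearer in 23, beside 48.8%, and farther in 16, beside 26%. At 30 min 27 were nearer, beside 54.2%, and 18 farther, beside 27.4%. By 40 min the counts were close, 26 nearer, beside 49.1%, and 23 farther, beside 35.5%. The rest had the same position in both series, mostly the first of the window.

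In a part of the group no wave peak was called past the first position of the window. Whether such a call marks a wave that stayed or a missing peak cannot be told from the positions. The first position of the window, −2 kb, was called at all 4 times for 9 genes in shCtrl, beside 9.76% of all listed genes, and for 12 in shTHOC5, beside 11.7%. ATM, ERCC8, FANCM, MSH3, MSH4, NIPBL, POLK and XRCC4 showed this in both series, beside 7.8% of all genes. NIPBL is among them in spite of its high coverage. At 10 min the first position was called for 29 of the 58 genes in shCtrl, beside 33.8%, and for 37 in shTHOC5, beside 47.5%. At 20 min it was 23 in shCtrl, beside 27%, and 23 in shTHOC5, beside 30.2%. At 30 min it was 14 in shCtrl, beside 18.9%, and 17 in shTHOC5, beside 21.2%. The difference between the series was thus largest at the first time. At 40 min it was 11 in shCtrl, beside 15.6%, and 12 in shTHOC5, beside 15%.

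The deposited filters, which ask for coverage, for a first wave peak past a minimum and for order, kept 7 of the 58 genes in shCtrl (12.1%), beside 4.92% of all listed genes: MSH6, PDS5A, PDS5B, RAD54L2, RFC1, RRM2 and TOP1. In shTHOC5 they kept 6 (10.3%), beside 10%: ERCC6L2, MSH6, PDS5A, PDS5B, RAD18 and XRCC5. MSH6, PDS5A and PDS5B were kept in both, beside 2.4% of all genes. These comparisons are not at like coverage, although coverage is one of the filter conditions. All 7 and all 6 genes belong to the 50 better covered ones. Of the 2298 listed genes with such coverage, 9.83% passed the filters in shCtrl and 19% in shTHOC5. Set against these, the share of the 50 was higher in shCtrl and lower in shTHOC5. For genes passing in both series no such share was computed. RAD54L2, RFC1, RRM2 and TOP1, kept in shCtrl alone, were in order in shTHOC5 as well, but their first wave peak lay before the TSS there. Its position in shTHOC5 was −2 kb in RAD54L2 and TOP1, −0.818 kb in RFC1 and −0.015 kb in RRM2. The same 3 conditions rebuilt from the deposited columns gave 9 genes in shCtrl and 7 in shTHOC5, so they do not return the filter mark exactly.

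Both PDS5 genes had waves that moved through an intron near the start. PDS5A (155 kb, chr4:39822863-39977956, minus strand) had its wave peak at 4.70, 5.84, 10.2 and 11.7 kb in shCtrl and at 2.70, 4.26, 6.79 and 14.3 kb in shTHOC5, at 10, 20, 30 and 40 min. All 8 positions were in intron 2, and those of shTHOC5 were nearer the TSS at 10, 20 and 30 min and farther at 40 min. PDS5B (192 kb, chr13:32586452-32778019, plus strand) had 1.22, 5.45, 6.97 and 9.58 kb in shCtrl and 1.57, 3.79, 6.22 and 9.27 kb in shTHOC5, all in intron 1. Here the difference between the series stayed between −1.67 and 0.348 kb. The deposited rates, slopes through the 4 peaks and a point at the start of the window at 0 min, were 0.330 and 0.367 kb/min in PDS5A and 0.289 and 0.272 kb/min in PDS5B.

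RRM2 (chr2:10120698-10211725, plus strand) had wave peaks at 3.57, 5.90, 6.67 and 8.07 kb in shCtrl and at −0.015, 4.72, 6.15 and 7.30 kb in shTHOC5. The difference, shTHOC5 minus shCtrl, was −3.58 kb at 10 min and between −1.19 and −0.52 kb later, so the shTHOC5 peak was nearer the TSS each time. Counted from the start printed above, its peaks ran from 1.53 to 6.03 kb in shCtrl, between intron 4 and intron 7. The canonical transcript of RRM2, the one GENCODE marks as representative, ends 10.7 kb from the listed start. Most of the coverage window lies past that end, and the wave could be followed over a short stretch only. The rates were 0.232 and 0.248 kb/min, so the rate was higher in the series whose peaks were nearer the TSS. The slope over the 4 release times alone, without that added point, was 1.64 times higher in shTHOC5, whereas without the 10 min libraries the rate ratio was 0.935.

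TOP1 and RAD54L2, a helicase-like relative of RAD54, also had nearer peaks in shTHOC5 at each of the 4 times. TOP1 had 2.71, 8.87, 11.2 and 45.9 kb in shCtrl and −2, 6.20, 8.65 and 41.8 kb in shTHOC5, and the step from 30 to 40 min was long in both series. RAD54L2 had 3.45, 9.82, 9.86 and 10.4 kb against −2, 5.73, 7.41 and 9.93 kb. Its difference was −5.45 kb with 10 min of release and −0.478 kb with 40 min. With RAD21L1 and RRM2, 4 of the 12 genes in order in both series were nearer at all 4 times, beside 41.7% of the 424 such genes of the whole list.

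ORC4 showed the lowest rate ratio of these genes. Its peaks were at −2, 0.62, 4.96 and 6.84 kb in shCtrl and at −2, −0.14, 2.08 and 2.80 kb in shTHOC5, so the difference went from 0 at the first time to −4.04 kb at the last. The rate ratio was 0.555. WRN, a RecQ helicase, had −2, 3.31, 6.09 and 6.72 kb against −2, 2.68, 5.01 and 6.51 kb, with a rate ratio of 0.941. Its peaks in shTHOC5 were nearer the TSS at the 3 later times.

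RAD18, ERCC6 and RFC1 had higher rates in shTHOC5. RAD18 had −2, 2.99, 5.20 and 9.33 kb in shCtrl and 0.299, 5.47, 9.01 and 28.4 kb in shTHOC5, farther downstream at every time. Its rates were 0.299 and 0.695 kb/min (ratio 2.33), and without the 40 min libraries the ratio was 1.44. ERCC6, the transcription-coupled repair factor CSB, had 1.79, 5.79, 5.96 and 6.09 kb against −2, 4.75, 7.76 and 8.45 kb. Its wave stood nearly still after 20 min in shCtrl, and the rate ratio was 1.51. RFC1, the large clamp loader subunit, had 1.84, 3.88, 6.64 and 12.3 kb against −0.818, 4.88, 8.67 and 17.1 kb, with a ratio of 1.42. In ERCC6 and RFC1 the shTHOC5 peak began upstream of the shCtrl peak and ended downstream of it.

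XRCC5 and ERCC6L2, a relative of ERCC6, were kept in shTHOC5 only. XRCC5 had 7.92, 6.31, 37.4 and 7.88 kb in shCtrl, without order, and 3.65, 5.54, 7.28 and 8.80 kb in shTHOC5. ERCC6L2 had 4.23, 3.72, 5.19 and 4.19 kb in shCtrl and 4.23, 4.81, 5.37 and 9.30 kb in shTHOC5. The canonical start of ERCC6L2 lies 4.43 kb inside the listed gene. Its peaks in shCtrl stayed within a narrow stretch around that start, and those in shTHOC5 left it at 40 min only. At 10 min the peak lay before the canonical start in both series, at −0.201 kb from it in shCtrl and −0.196 kb in shTHOC5.

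**Figure D3:**
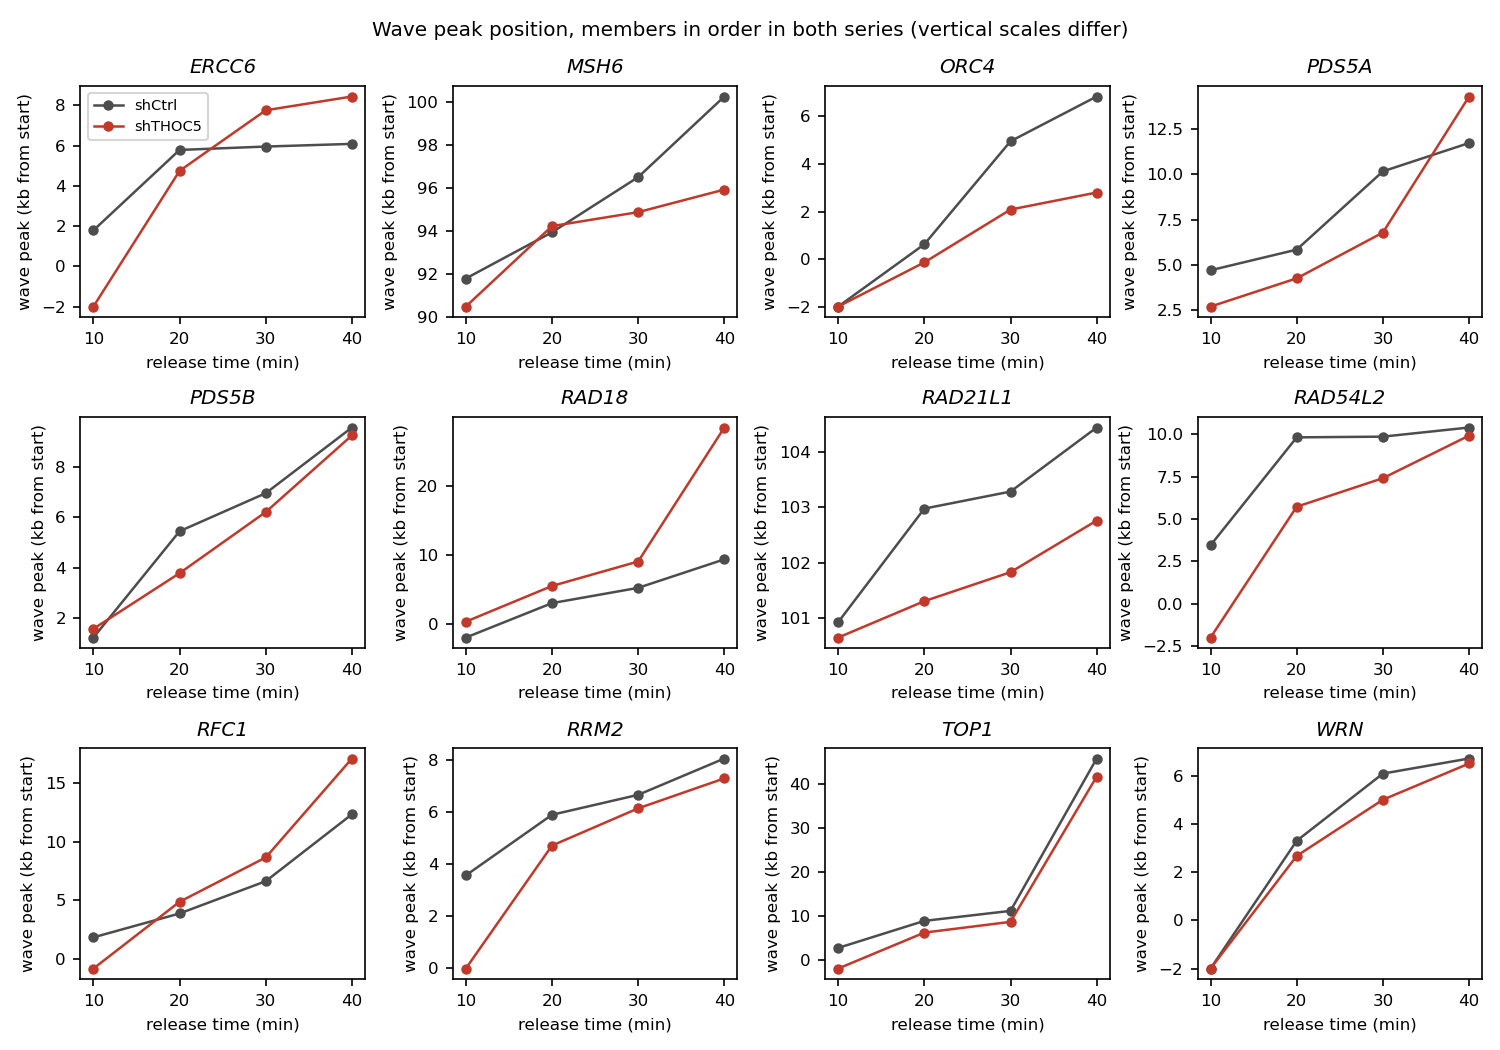
Wave peak position in kb from the listed start against release time (10, 20, 30 and 40 min) for the 12 genes in order in both series, shCtrl in grey and shTHOC5 in red, 1 library per point, with a vertical scale for each panel. The red line lies below the grey one at all 4 times in RAD21L1, RAD54L2, RRM2 and TOP1 and above it at all 4 in RAD18.

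Over the 12 genes in order in both series, the median difference of the wave peak, shTHOC5 minus shCtrl, took the values −1.66, −1.11, −1.27 and −0.396 kb in the order of the release times. Over all 424 listed genes in order in both it was −0.847, −1.22, −1.31 and −1.69 kb. Nearer the TSS in shTHOC5 were 8 of the 12 at 10 min, beside 60.8%, 9 at 20 min, beside 72.6%, 9 at 30 min, beside 77.8%, and 8 at 40 min, beside 75.7%. The median of the 12 was thus smallest in size at 40 min, whereas that of all 424 was largest there. The 95% interval of a median over these 12 genes, by binomial order statistics and for the spread between genes only, ran from −4.04 to 2.57 kb at 40 min and holds both medians.

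The rate ratio of the 12 had a median of 1.02, with 6 genes below and 6 above 1. Over the 424 it was 0.938, with 298 genes below and 126 above 1. A ratio of at most 0.8 was found in ORC4 alone, beside 28.1% of the 424, and one at or over the inverse of that limit in ERCC6, RAD18 and RFC1, beside 8.49%. The order-statistic range of the median of the 12 ran from 0.941 to 1.42. It holds 1 and is for the spread between genes only. The 12 genes are among the 424, and a difference from the 0.938 of the 424 was not tested. With slopes over the 4 release times alone the ratio was 1.24 for the 12 and 0.915 for the 424, and 7 of the 12 were above 1, beside 40.8% of the 424.

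**Figure D4:**
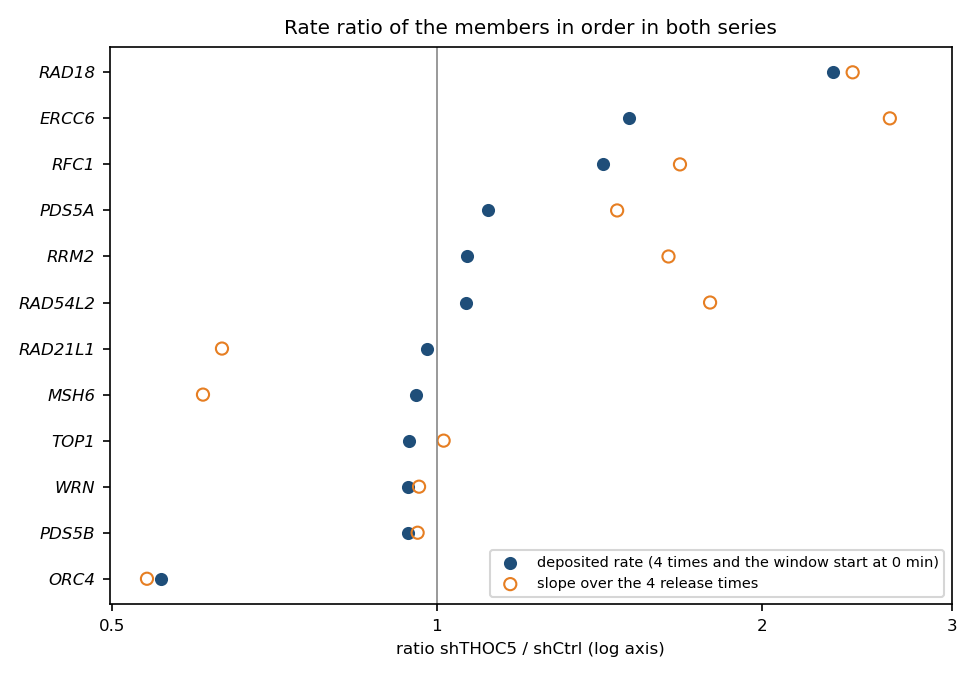
Ratio of the elongation rate in shTHOC5 to that in shCtrl (log axis) for the 12 genes in order in both series, from the deposited rates (filled) and from the slope over the 4 release times alone (open). The largest deposited ratio is 2.33 in RAD18 and the smallest 0.555 in ORC4, and in MSH6 the open point (0.607) lies far below the filled one (0.957).

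In some of the genes the wave peaks lay far from the listed start, and their positions were set against the GENCODE annotation. Peaks were called over 40 kb downstream at all 4 times in 8 of the 58 genes in each series (13.8%), beside 21.6% of all listed genes in shCtrl and 20.6% in shTHOC5. The canonical transcript, the one GENCODE marks as representative, began more than 10 kb inside the listed gene in 9 of the 55 genes whose width matched the annotation, beside 18.9% of all such genes: BRCA1, ERCC1, MSH6, PARP16, POLD3, RAD52, RAD9A, SMC6 and TP53BP1. Peaks inside a coding gene of the opposite strand were found in 12 of the 55 in shCtrl, beside 14.2%, and in 12 in shTHOC5, beside 13.2%. Peaks beyond the gene end were found in 12 of the 58 in shCtrl, beside 24.5%, and in 10 in shTHOC5, beside 21.6%. Whether the coverage used strand is not given in the sources used here, so signal of a gene and of a neighbour on the other strand cannot be told apart.

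MSH6 had wave peaks at 91.8, 93.9, 96.5 and 100.3 kb in shCtrl and at 90.5, 94.2, 94.9 and 95.9 kb in shTHOC5. Counted from its canonical start, the same peaks lay at 4.18, 6.33, 8.90 and 12.7 kb in shCtrl and at 2.87, 6.62, 7.27 and 8.32 kb in shTHOC5, in introns 1 and 2. The deposited rates, whose line includes the start of the window at 0 min, were 2.09 and 2.00 kb/min. The slopes over the 4 release times alone were 0.280 and 0.170 kb/min. The ratio was 0.957 by the first and 0.607 by the second. From 20 min on these peaks also lay within FBXO11, a coding gene of the opposite strand, more than 110 kb from the start of FBXO11.

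POLD3 was similar, with a canonical start 98.7 kb inside the listed gene. From there its peaks were at 2.12, 4.30, 6.31 and 6.08 kb in shCtrl and at 2.05, 2.95, 3.75 and 4.57 kb in shTHOC5, all in intron 2. The shTHOC5 peak was nearer at all 4 times. RAD52 had −2, 43.1, 86.1 and 46.7 kb in shCtrl and −2 kb at all 4 times in shTHOC5. The shCtrl peaks at 20 and 40 min lay 2.74 and 6.36 kb from the inner RAD52 start printed above, in intron 1, and that at 30 min beyond the gene end, in WNK1. BRCA1, with a canonical start 44.9 kb inside, had −2, 42.6, 41.9 and 42.7 kb in shCtrl and −2 kb at all 4 times in shTHOC5. Like RAD52 it left the first position in shCtrl alone. The 3 later BRCA1 peaks lay 2.04 to 2.82 kb from the start of NBR2, a noncoding gene of the opposite strand.

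MCM9, a helicase relative of the MCM complex, was the one of the 58 genes called in reverse order in shCtrl, beside 2.09% of all genes. Its peaks moved toward its TSS, from 40.8 to 34.7 kb in shCtrl and from 40.4 to 35.0 kb in shTHOC5. All 8 lay in ASF1A, a histone chaperone gene of the opposite strand, at 0.234, 3.56, 4.52 and 6.35 kb from its start in shCtrl and at 0.572, 2.34, 5.07 and 6.01 kb in shTHOC5. Read from ASF1A, the peaks were in order in both series. In shTHOC5 reverse order was called for 5 of the 58 genes, beside 3.01%: ERCC1, MCM9, NBN, PARP16 and SMC1B.

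SMC1B had peaks beyond its gene end, in FAM118A on the opposite strand, at 4.06, 7.58, 13.7 and 9.61 kb from the start of FAM118A in shCtrl and at 2.66, 4.63, 6.73 and 7.85 kb in shTHOC5. The 4 shTHOC5 peaks were nearer that start than the shCtrl peaks of the same time. RAD21L1, a meiotic cohesin subunit, had peaks in the noncoding gene SDCBP2-AS1 of its own strand, which overlaps SDCBP2 on the other, at 1.57, 3.61, 3.92 and 5.07 kb from that start in shCtrl and at 1.29, 1.94, 2.47 and 3.40 kb in shTHOC5. Its deposited rates of 2.15 and 2.11 kb/min compare with slopes of 0.108 and 0.068 kb/min over the 4 release times. ORC3 had peaks from 20 min on in AKIRIN2, at 8.60, 17.8 and 17.6 kb in shCtrl and at 5.27, 6.96 and 9.77 kb in shTHOC5. All 4 FANCI peaks in shCtrl lay in POLG on the opposite strand. In SMC6, 3 of the 4 peaks in shCtrl lay within 1.87 kb of the start of GEN1, also on the opposite strand.

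**Figure D5:**
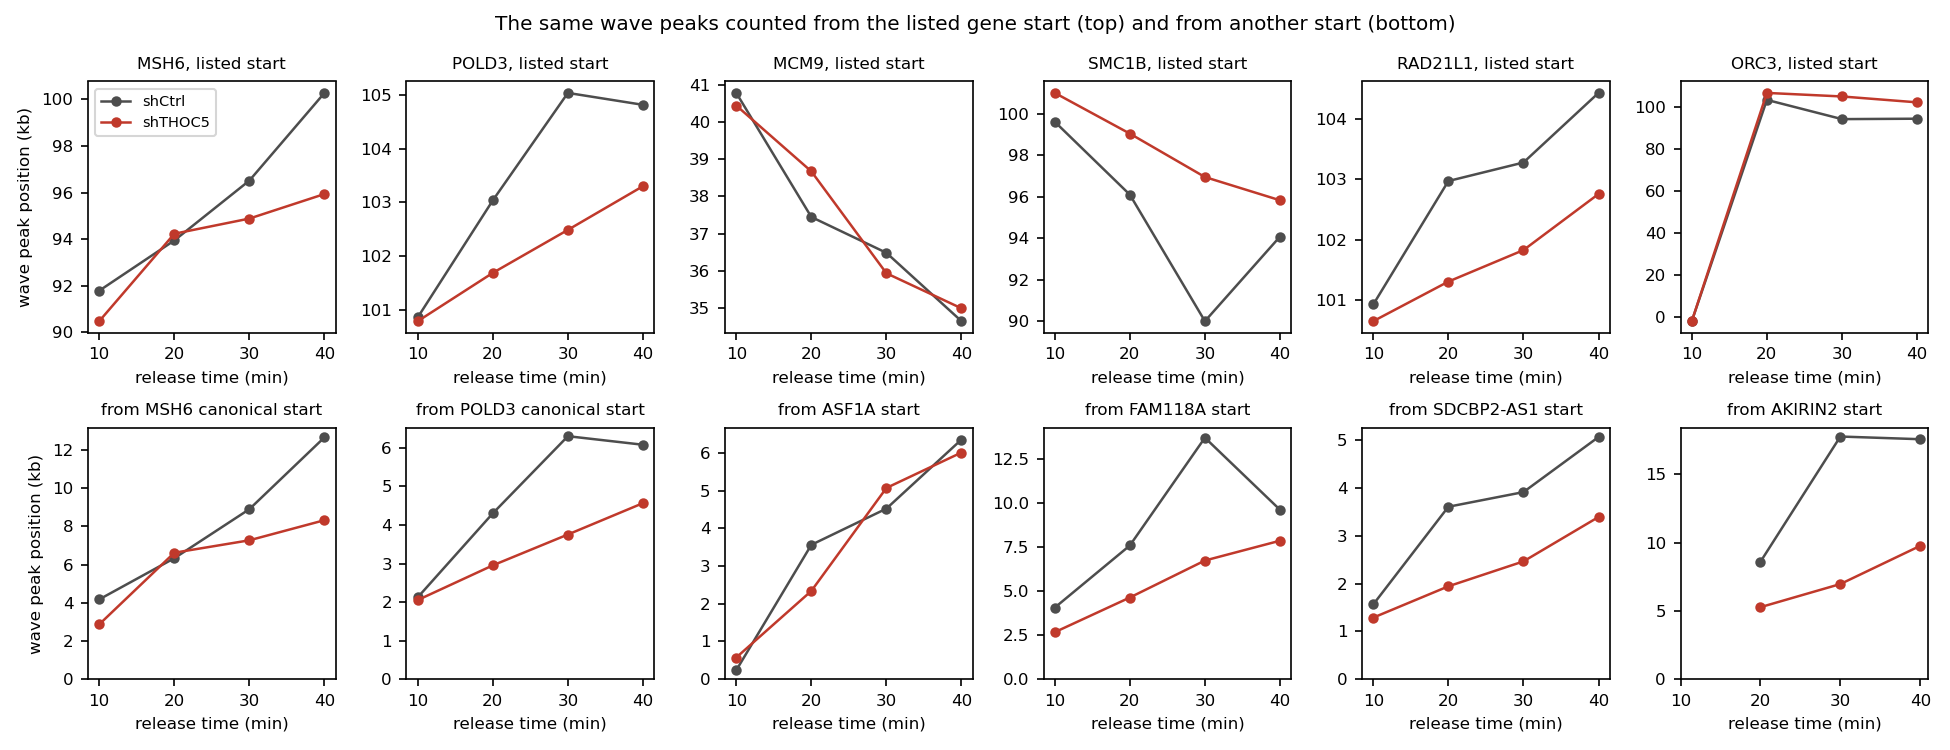
Wave peaks of 6 genes against release time, counted in kb from the listed start (top) and from another start (bottom): the canonical start for MSH6 and POLD3, and the start of the gene in which the peaks lay for MCM9, SMC1B, RAD21L1 and ORC3; shCtrl in grey, shTHOC5 in red. The MCM9 peaks go down in the top panel and rise from 0.234 to 6.35 kb (shCtrl) in the bottom one.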

How the data were processed

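DRB/TTchem-seq was analysed in 8 libraries (4 release times in shCtrl and 4 in shTHOC5). The Nanopore and ChIP-seq samples are not analysed here. The authors called a wave peak per gene and release time with a published pipeline and deposited, for each series, positions, rates, a filter mark and a coverage column. That column is named for a mean RPKM, but the deposited values sum to 1000000 over the listed genes and were read as RPM. What the mean was taken over is not given in the sources used here, and neither is the counting strand. The submitters' processing notes list GRCh38 with minimap2, CASAVA 1.8.2, Bowtie2 2.3.4.1 and deepTools 2.0, without roles.

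The 2 kb in front of the TSS were subtracted from each position. A least-squares slope through the 4 positions and a point at the window start (0 min) returned all 4592 deposited rates of both series (tolerance 2e-05 kb/min). Gene IDs were matched to GENCODE release 44 (4590 of 4592), and positions were annotated for the 4416 genes of equal width, 55 of the 58 described here. NBN, POLK and TOP2B differed in width. Members and lists were chosen with earlier results of these data known. Genes named were PDS5A, RAD52 and RRM2, those kept in either series or in order in both, the 3 largest and 3 smallest coverage ratios among genes of at least 100 rpm in both, the 3 of highest coverage in shCtrl, and those by which a group is described. Of the 58 genes, 1 is not reported here by name. No test was run. Functions were tested on simulated data. Python 3.11.15, pandas 2.3.3, numpy 2.4.6, scipy 1.17.1 and matplotlib 3.10.9 were used. Promoter sequences are from RefSeq on GRCh38.p14.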

Additional observations from a re-analysis of the deposited data

How the results depend on the processing

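With 1 library per hairpin and release time no result has a replicate error, and neither the depth behind a coverage value nor the counting error is known. Of 55 recomputed values of 10 results, 50 stayed within the 95% interval over genes of the value reported (for kept genes, within 1.5 times). Over all 58 genes, in order or not, the median wave peak difference was 0 kb at all 4 times. Over the 50 better covered genes it was 0, 0, −0.464 and 0 kb. These values lie within the wide intervals of the 12 genes, so staying within them does not show an unchanged difference. The interval of the median rate ratio holds 1, and some of its recomputed values, given here, fell below 1. With equal positions allowed, 55.2% of the 58 genes in shCtrl and 72.4% in shTHOC5 took no step back. These genes include the 9 and 12 called at the first position at all 4 times. With order as defined but without the 20 min release time, 41.4% and 46.6% were in order. None of these shares was computed over all listed genes. Without the 40 min release time the median rate ratio was 0.931, and that of PDS5A 0.742 in place of 1.11. Without the 10 min release time the median was 0.967, and RAD54L2 (0.940) and RRM2 (0.935) came below 1. In the 3 genes kept in both series it was 0.957. The cause was not tested. The mean wave peak difference at 40 min was 1.07 kb, where the median was −0.396 kb. RAD18 had a difference of 19.1 kb at that time. Over the 9 genes in order whose canonical start was within 10 kb and whose peaks lay in no opposite coding gene and within the gene, an alternative chosen after seeing the data, the median rate ratio was 1.07. The hairpins were compared within each release time, and no fit with release time as a block was run.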
